A study of Mus musculus with 20 samples.

Results

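The regions described here are the H3K4me3 peaks of mouse hematopoietic stem cells (HSCs) on chromosomes 1 to 19, in 1 peak list from fetal liver and 1 from adult bone marrow. The fetal list holds 16567 such peaks and the adult list 16156, together 32723 of the 219055 peaks in the 8 lists of the series. They were taken by chromosome alone, and a fetal and an adult peak were matched when they shared at least 1 bp. The series profiled H3K4me3, H3K27ac, H3K4me1 and H3K27me3 by ChIP-seq, which sequences the DNA bound to immunoprecipitated histones, in B6129SF1 mice. Fetal HSCs came from livers of embryonic day 14.5 and adult HSCs from bone marrow of mice 6 to 8 weeks old. Both were sorted as lineage-negative, Sca1-positive, cKit-positive and CD135-negative cells, a gate that takes in stem cells together with some early multipotent progenitors, and 50000 cells went into each ChIP. The labels list 2 H3K4me3 replicates per stage. Each deposited list is titled as combined and was taken as 1 peak call on both replicates, so no value below has a replicate error, no test between stages was possible and no p-value is given. The labels state neither how many animals were pooled nor whether replicates came from separate animals.

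Trimethylation of lysine 4 on histone H3 is laid down by SET1 and MLL complexes and marks the starts of genes that are transcribed or held ready for transcription. Its domains centre on CpG-rich promoters, and broad ones are known from genes of cell identity. H3K27ac accompanies active promoters and enhancers, H3K4me1 flanks promoters and marks enhancers, and H3K27me3 is the mark of Polycomb repression, which overlaps H3K4me3 at bivalent promoters. In a sorted population a narrower or weaker peak and a mark carried by fewer of the cells cannot be told apart.

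Coordinates are those of the mm9 build, which the submitters' processing notes name, and are 1-based. Gene positions in mm9 were not used here, because the gene and promoter tables at hand are of a later assembly. Regions are therefore given by position alone, no sequence is printed, and the identity of the cells and of the mark was not checked against genes. The authors' peak score has no stated unit and was used only to rank peaks within a list. A percentile below is the place of a peak in that ranking, from 0 for the weakest to 100. Scores of 3100 and over were held by 33.1% of fetal and 24.6% of adult peaks. The read depth behind the lists is unknown.

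Most H3K4me3 peaks had a single counterpart at the other stage. There were 14668 pairs of 1 fetal and 1 adult peak that overlapped no other peak. They took in 88.5% (88.0 to 89.0) of fetal and 90.8% (90.3 to 91.2) of adult peaks. Parentheses hold 95% Clopper-Pearson intervals. They treat peaks as independent, which neighbouring peaks are not, and take no account of how libraries vary. Another 68 fetal peaks were split over several adult peaks, 143 adult peaks joined several fetal ones, and 13 groups held several peaks of both lists. No counterpart was listed for 1514 fetal peaks, 9.14% (8.70 to 9.59), and for 1180 adult peaks, 7.30% (6.91 to 7.72). The smallest overlap of a pair was 144 bp. The closest peaks that did not overlap lay 4 bp apart.

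Within the pairs the marked stretch was nearly the same at both stages. The overlap made up a median of 90.002% of the span from the outermost edges, and in 10% of pairs it was 73.8% or less. Only 149 pairs, 1.02%, shared 50% or less of their span. The fetal peak lay inside the adult one in 35.3% of pairs and the adult peak inside the fetal one in 20.6%. Across pairs, fetal and adult widths correlated with Pearson's r of 0.938 and Spearman's rho of 0.934. These describe 14668 pairs from 1 list per stage, and pairs are not replicates.

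The pairs had a median width of 1842.5 bp in the fetal and 1883 bp in the adult list. The median log2 ratio of adult to fetal width was 0.025, or 1.02-fold, and the middle 90% of pairs lay between -0.29 and 0.47. The adult peak was the wider one in 8298 pairs and the narrower one in 6337, and 33 pairs had equal widths. With a fold of 1.5 as the limit, 455 pairs were wider in the adult list, which is 3.10% of the 14668 pairs compared, and 159 were narrower, which is 1.08%. Wider pairs thus made up 74.1% of the changed ones. At 2-fold there were 89 wider and 26 narrower pairs, and at 3-fold 7 and 4.

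**Figure D1:**
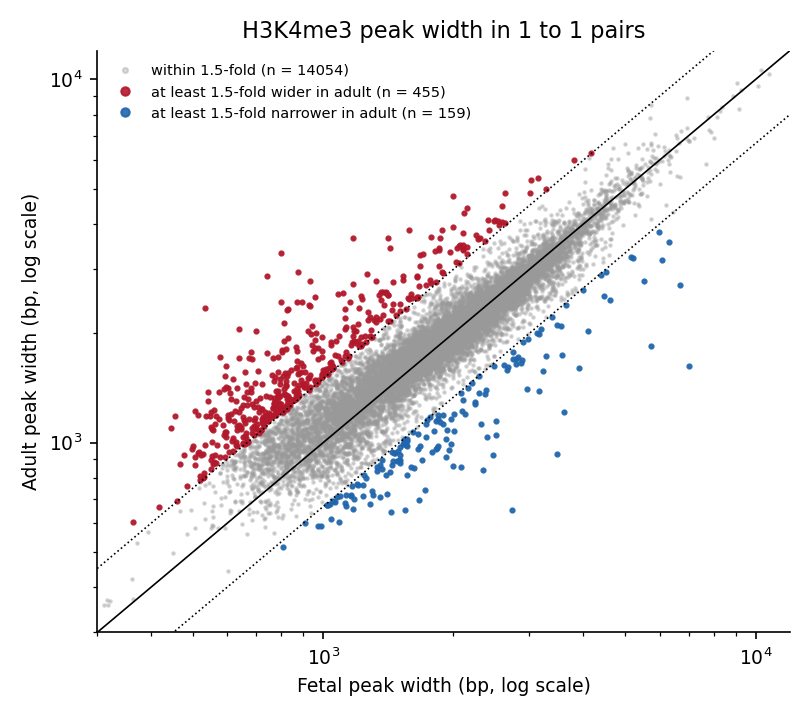
Width of the adult H3K4me3 peak against that of the fetal peak in bp, both on log scales, with 1 point for each of the 14668 pairs. The solid line marks equal width and the dotted lines a 1.5-fold difference; 455 pairs lie above the upper dotted line, 253 of them in the narrowest of the 5 width bins, and 159 lie below the lower one.

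The direction of the width difference changed with the size of the peak. When pairs were put into 5 equal bins by their mean width, the median log2 ratio fell from 0.14 among the narrowest, which had median widths of 963 bp fetal and 1048 bp adult, to -0.020 among the widest, with 3040 and 3001 bp. The 3 bins between them had medians of 0.069, 0.020 and -0.0040. The adult peak was the wider one in 69.4% of the narrowest pairs and in 43.3% of the widest. At least 1.5-fold widening was found in 8.62% (7.63 to 9.70) of the narrowest and 1.47% (1.06 to 1.97) of the widest pairs. The 390 pairs with a mean width of 4000 bp or more had the same median width of 4640.5 bp at both stages.

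The same gradient ran along the score. Pairs with a mean percentile under 25 had a median log2 ratio of 0.14, and 287 of 2778 were at least 1.5-fold wider in the adult list, against 85 narrower. In the 3774 pairs with both peaks at a score of 3100 or over, the median was -0.016, the adult peak was the wider one in 44.1%, and 14 were wider against 7 narrower by the same limit. When only peaks at or above the median score of their list were matched, the median was -0.0057, with 50 wider and 40 narrower pairs, so that most of the excess of wider pairs was among low-scoring peaks. Score and width move together over the lists. With both scores at the top, the medians of 5 equal bins by width were 0.0015, -0.017, -0.021, -0.032 and -0.012 from the narrowest to the widest. Fetal median widths in these bins ran from 2159 to 4007 bp, and no such pair had a mean width under 1541 bp. The narrowest pairs, which had the highest ratios, were thus absent. Whether the fall with width holds at equal score cannot be told from these bins. The part of sequencing depth was not tested.

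**Figure D2:**
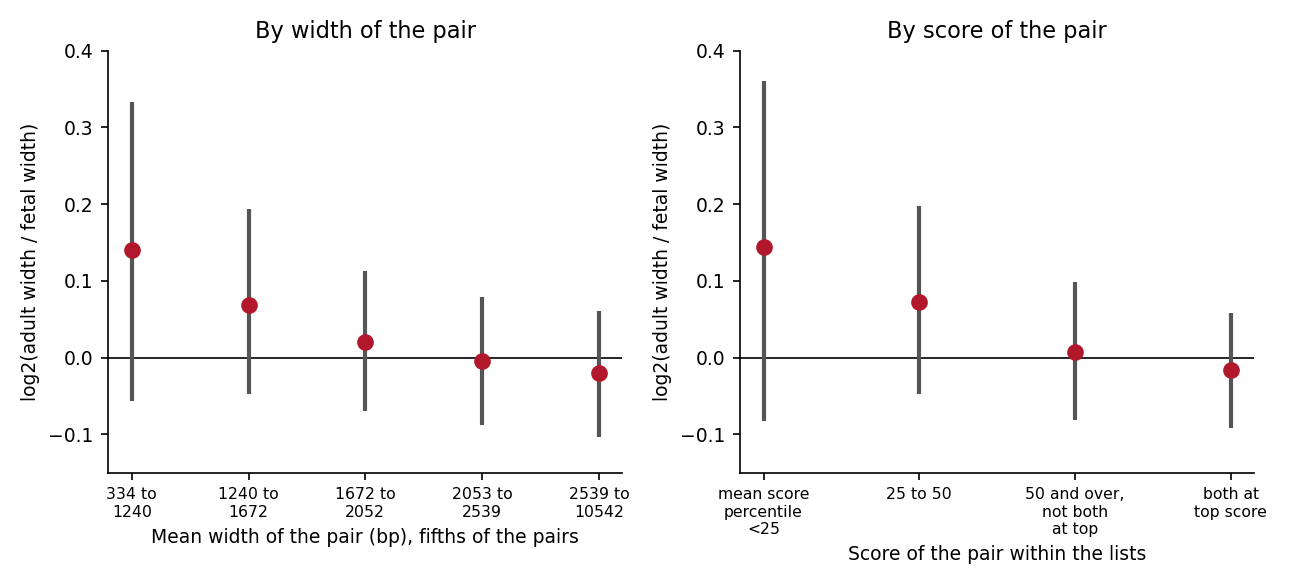
The log2 ratio of adult to fetal H3K4me3 width (points, medians; bars, from the lower to the upper quartile of pairs) by the mean width of the pair in bp (left) and by the score of the pair within its lists (right). The medians fall from 0.14 at the left of both panels to -0.020 for the widest pairs and -0.016 for pairs at the top score.

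Wider pairs had small, low-ranked peaks in the fetal list. Their definition by the width ratio partly fixes this, because score and width move together. Their median width was 829 bp in the fetal and 1498 bp in the adult list, and their median percentile was 11.7 and 25.7. Narrower pairs had median widths of 1827 and 1013 bp, and their median percentiles were 33.97 in the fetal and 14.4 in the adult list. For pairs within 1.5-fold the median widths were 1869 and 1896 bp and the median percentiles 56.5 and 55.2.

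The 5 pairs that widened most were 3.22 to 4.41 times as wide in the adult list. The largest ratio was on chromosome 7, where the fetal peak from 113584150 to 113584683 (534 bp) lay within an adult peak from 113582740 to 113585094 (2355 bp). On chromosome 12 a fetal peak of 799 bp, from 42210073 to 42210871, lay within an adult peak of 3334 bp that reached 2265 bp further at its upper end. Adult H3K27ac was listed at neither place, while fetal H3K27ac covered 663 bp at the first and none at the second. On chromosome 17 the fetal peak from 36258458 to 36259197 (740 bp) was matched by an adult peak of 2884 bp, with both edges more than 1000 bp further out. H3K27ac covered 980 bp of that span in the fetal and 2428 bp in the adult list. The other 2 pairs were on chromosome 3, from 875 to 2955 bp, and on chromosome 5, from 638 to 2055 bp. Both had H3K27ac at both stages. It covered 1852 bp in the fetal and 2052 bp in the adult list on chromosome 3, and 1974 and 1046 bp on chromosome 5.

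The pair that narrowed most was on chromosome 6. The fetal peak from 49162426 to 49169454 spanned 7029 bp at a score of 3100, and the adult peak from 49163484 to 49165106 spanned 1623 bp at a score of 255.03. The other marks differed along with it. H3K27ac covered 6960 bp of the span in the fetal and 892 bp in the adult list, while H3K27me3 was absent from the fetal list and covered 5127 bp in the adult list. The next 2 were neighbours on chromosome 13, where peaks of 2727 and 3482 bp in the fetal list were 653 and 930 bp in the adult list. On chromosome 2 a fetal peak from 26437953 to 26443673 (5721 bp) was matched by an adult peak of 1842 bp, with 3530 bp lost at the lower edge, and H3K27ac covered 5721 bp in the fetal and 1801 bp in the adult list. The pair on chromosome 4 from 133806917 to 133810515 was 3599 bp wide in the fetal and 1214 bp in the adult list.

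Among pairs in which both peaks scored at or above their list's median, the largest width differences were mostly 1-sided. As part of the full set, these pairs could not exceed the largest differences given above. The adult peak was at most 2.05 times as wide, on chromosome 7, where a fetal peak from 95578207 to 95580357 (2151 bp) was matched by an adult peak of 4420 bp that extended 2065 bp past its upper edge and 204 bp past its lower one. H3K27ac covered 1950 bp there in the fetal and 3768 bp in the adult list. Of the 5 widest gains in this set, each took place mainly at the upper edge, by 1608 to 2221 bp. Besides the region on chromosome 2, the largest losses were on chromosome 10, from 3572 to 1745 bp with 1804 bp lost at the upper edge, and on chromosome 11, from 5520 to 2785 bp with 2845 bp lost at the lower edge. A fetal peak on chromosome 5 from 111844927 to 111851017 (6091 bp) ended 3126 bp earlier in the adult list. The fifth, on chromosome 15, went from 4608 to 2477 bp. H3K27ac there covered 2028 bp in the fetal and 2189 bp in the adult list. At the losses on chromosomes 10, 11 and 5 it went from 1671 to 1273, 2913 to 2641 and 1859 to 1737 bp. At the other gains, on chromosomes 9, 11, 6 and 7, fetal H3K27ac covered 1579, 3528, 2938 and 4377 bp. Adult H3K27ac covered 1833, 3677, 2955 and 4232 bp.

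The widest pairs changed little. The largest, on chromosome 5 from 143574881 to 143585617, was 10737 bp wide in the fetal and 10346 bp in the adult list, and the next, on chromosome 11 from 23973834 to 23984135, was 10302 and 10606 bp. The log2 ratios of the 5 widest pairs lay between -0.084 and 0.11. H3K27ac covered 6967 to 10529 bp of each of the 5 spans at both stages, and H3K27me3 was at none of them.

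Edges were compared as the distance by which the adult peak reached further out than the fetal one. The median was 21 bp at the lower and 21 bp at the upper edge, and the median absolute shift was 84 bp at both. Both edges stayed within 100 bp in 4802 pairs, 32.7% (32.0 to 33.5). Both were further out in the adult list in 34.9% of pairs, both further in in 20.3%, and they moved in opposite directions in 44.1%. The shifts of the 2 edges of a pair were only loosely related, with Pearson's r of 0.149 and Spearman's rho of 0.160 across pairs.

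An edge at least 500 bp further out in the adult list was found in 426 pairs, 2.90% of those compared, and one at least 500 bp further in in 338 pairs, 2.30%. These large shifts rarely involved both ends. Both edges were 500 bp or more further out in 18 pairs and further in in 7, and 2 pairs had slid, with 1 edge out and the other in. In 199 pairs a single edge was that far out while the other stayed within 100 bp, and in 181 pairs a single edge was that far in. Among peaks at or above the median score the order was the opposite, with 223 pairs with an outward and 247 with an inward edge.

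Widening and narrowing were shared unequally between the ends. In the 455 wider pairs the adult peak had a median of 632 bp more than the fetal one, and the larger edge shift gave a median of 76.0% of it. In the 159 narrower pairs the median loss was 764 bp and the larger shift gave 83.6%. At least 90% of the change was at 1 edge in 22.6% of wider and 41.5% of narrower pairs. Both edges still moved the same way in 93.2% and 83.0%. The lower edge had the larger shift in 223 wider pairs and the upper edge in 232, and in 76 and 83 narrower ones.

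**Figure D3:**
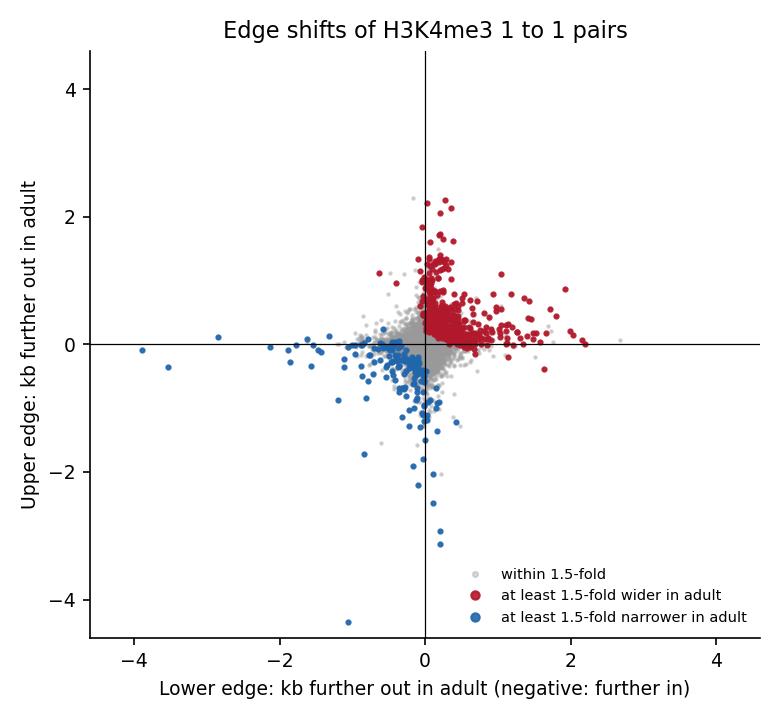
Shift of the upper edge against shift of the lower edge in kb, positive where the adult H3K4me3 peak reached further out, with 1 point per pair. Both edges moved the same way in 93.2% of wider and 83.0% of narrower pairs, mostly by unequal amounts. Few points lie far from both axes: both edges were 500 bp or more further out in 18 pairs and further in in 7.

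Ranks of the matched peaks were also close. The median absolute difference in percentile between the lists was 4.14 points. That is what ties alone give to a pair at a score of 3100 in both lists, whose shared rank was 82.6 in the fetal and 86.8 in the adult list. At least 25 points were gained in the adult list by 145 pairs, 0.989% of those compared, and lost by 355, 2.42%. Much of this excess of falls came from the top of the scale. Scores above 3100 were held by 267 fetal and 295 adult peaks with median widths of 2020 and 2308 bp. Peaks at exactly 3100 were wider, at 2585.5 and 2759 bp, so that the order of scores above 3100 did not follow width. With all scores of 3100 and over tied, 132 pairs rose and 182 fell, and among pairs with neither peak at such a score 66 rose and 40 fell. The direction of the imbalance thus depended on how the top of the scale was treated.

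Rank and width differences went together, with Spearman's rho of 0.351 and Pearson's r of 0.436 across pairs. Of the 145 pairs that rose, 57 were at least 1.5-fold wider in the adult list and none was narrower. Of the 355 that fell, 26 were narrower and none was wider. Both measures come from the same peak calls.

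The 5 largest rises were 52.7 to 54.7 points. On chromosome 4 the pair at 101180211 to 101182062 (1852 bp fetal, 3426 bp adult) went from the 32.7 to the 86.8 percentile. There, fetal H3K27me3 covered 1794 bp and fetal H3K27ac none, while adult H3K27ac covered 3156 bp and adult H3K27me3 none. The region on chromosome 17 described above rose from 12.97 to 65.8. A pair on chromosome 16 from 33794526 to 33796516 rose from 22.1 to 74.9 and from 1991 to 4774 bp, with H3K27ac over all 4774 bp at both stages. On chromosome 6 the pair at 38868912 rose from 19.8 to 72.5, and its width from 1426 to 3440 bp. The rise on chromosome 18 at 13019807 involved an adult score above 3100 and was 42.6 points with such scores tied.

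The largest difference downward, -58.7 points, was that of the chromosome 6 region with the strongest narrowing. On chromosome 10 a peak from 45187221 to 45191319 (4099 bp) at the top score in the fetal list was 2027 bp wide at the 30.4 percentile in the adult list. Fetal H3K27ac covered 3255 bp of it and adult H3K27ac none, and H3K27me3 was listed in the adult only, over 891 bp. The other 3 of the 5 largest falls, on chromosomes 9, 7 and 13, had fetal scores above 3100 and widths that differed by less than 1.5-fold. With such scores tied their differences lay between -42.3 and -36.7 points. H3K27ac covered 944 bp on chromosome 9 and 890 bp on chromosome 13 in the fetal list, and neither in the adult list. On chromosome 7 the order was the opposite, with none in the fetal and 1104 bp in the adult list. H3K27me3 went from 1994 to 1097 bp on chromosome 9 and from 734 to 1103 bp on chromosome 7. On chromosome 13 it was absent from both lists.

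H3K4me3 peaks that were split or merged between lists were mostly separated by short gaps. The 68 fetal peaks that were split had a median width of 3599 bp, and 67 of them corresponded to 2 adult peaks. The widest piece had a median of 2253.5 bp and the narrowest 1096 bp, and the gap a median of 132.5 bp. The gap was under 500 bp in 57 of the 68. The pieces covered a median of 92.0% of the fetal peak. Their ranks were unequal, with a median percentile of 73.6 for the best and 12.2 for the worst piece, against 82.6 for the fetal peak.

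The 143 adult peaks that joined fetal ones had a median width of 2898 bp, and 138 joined 2 peaks. Their gap had a median of 106 bp and was under 500 bp in 133 of them, and the fetal pieces covered a median of 92.1%. Merges thus outnumbered splits by 143 to 68, and after peaks of 1 list within 1 kb had been joined first, 40 merges and 24 splits were left. Among peaks at or above the median score there were 10 and 4. Fetal H3K27ac was found in 69.6% (57.3 to 80.1) of the 69 gaps that split fetal peaks and adult H3K27ac in 42.0% (30.2 to 54.5). In the 148 gaps bridged in the adult list these shares were 68.2% (60.1 to 75.6) and 59.5% (51.1 to 67.4). Adult H3K4me1 overlapped 32.4% (21.5 to 44.8) of split and 24.5% (17.7 to 32.4) of merged regions and 10.9% (10.4 to 11.4) of 1 to 1 pairs by 1 bp or more, and split and merged regions were also wider. With 500 bp required it was at 0 of 68, 0 of 143 and 10 of 14668, where a count of 0 allows a share of up to 5.28% and 2.55% by the upper Clopper-Pearson bound.

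The only fetal peak split into 3 was on chromosome 19, from 4187315 to 4193888 (6574 bp). Its adult pieces ran from 4187652 to 4188796, from 4188839 to 4189714 and from 4189725 to 4193776, with gaps of 52 bp in all. On chromosome 5 a fetal peak from 108149214 to 108156590 (7377 bp) was matched by adult peaks of 1102 and 4959 bp, 255 bp apart. The other 3 named splits, 2 on chromosome 7 and 1 on chromosome 11, were 6426 to 7139 bp wide and had gaps of 4 to 86 bp. The widest of the 5 merges of 3 fetal peaks was on chromosome 6, where an adult peak from 88143154 to 88154095 (10942 bp) covered fetal peaks from 88143431 to 88145252, from 88145986 to 88151770 and from 88151852 to 88153864. The fetal pieces covered 87.9% of it. Another, on chromosome 9 from 114681986 to 114691951, joined 3 fetal peaks over 9966 bp. Those on chromosomes 3 and 7 spanned 6814 and 5937 bp. The least complete was on chromosome 10 from 42579784 to 42584461, where 3 fetal peaks covered 65.6% of 4678 bp and the best of them stood at the 36.2 percentile against 66.6 for the adult peak.

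Peaks without a counterpart were narrow and weak in both lists. Their median widths were 800 bp fetal and 930 bp adult, and their median percentiles 8.10 and 8.13. Below the 25th percentile lay 93.7% of the fetal and 92.8% of the adult ones, while 5 fetal peaks and 1 adult peak scored above the median of their list. Few lay close to a peak of the other stage. A peak of the other list lay within 1 kb of 6.67% (5.47 to 8.05) of the fetal and 5.42% (4.20 to 6.87) of the adult ones, and beyond 10 kb for 65.9% and 67.1%.

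On chromosome 12 the fetal peak from 114662442 to 114669024, at 6583 bp the widest with no counterpart, lay 201464 bp from the nearest adult peak. Fetal H3K27ac covered 5363 bp of it and adult H3K27ac none. The next, on chromosome 11 from 95864405 to 95869745 (5341 bp), had the top score. Fetal H3K27ac covered 4498 bp of it and adult H3K27ac none, and H3K27me3 went from 931 bp in the fetal to 4948 bp in the adult list. The third, of 3664 bp, lay on chromosome 13 from 56277007 to 56280670, again with fetal (1222 bp) but no adult H3K27ac. The widest adult peaks without a counterpart were 3687 bp or less. They were on chromosome 17 from 84522267 to 84525953 (3687 bp), where a fetal peak lay 1024 bp away, on chromosome 9 from 40126042 to 40129291 (3250 bp) and on chromosome 6 from 124270097 to 124272572 (2476 bp). All 3 had adult H3K27ac, over 1343 to 3687 bp, and fetal H3K27ac was at the first 2. The named peaks do not stand for their whole classes. Of the 1180 unmatched adult peaks, 638 overlapped H3K27ac at neither stage and 266 at both. A further 148 (12.5%) had fetal but no adult H3K27ac, and 128 (10.8%) the reverse. Of the 1514 unmatched fetal peaks, 968 had it at neither stage and 288 at both. Here 234 (15.5%) had fetal but no adult H3K27ac, and 24 (1.59%) the reverse. Matched peaks of low score give a measure for these counts. Of the 2778 pairs with a mean percentile under 25, 364 had fetal but no adult H3K27ac, and 163 the reverse. Loss of H3K27ac from fetal to adult was thus not particular to peaks without a counterpart.

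The other marks, which played no part in the matching, differed between the width classes. Fetal H3K27ac was at 56.7% (52.0 to 61.3) of wider pairs, 56.6% (48.5 to 64.4) of narrower pairs and 79.5% (78.8 to 80.1) of pairs within 1.5-fold. In the adult list these shares were 54.7% (50.02 to 59.4), 49.1% (41.1 to 57.1) and 80.6% (79.96 to 81.3). Over all scores, H3K27me3 shares were higher in wider and in narrower pairs than in the others. H3K27me3 was at 34.1% (29.7 to 38.6) of wider, 43.4% (35.6 to 51.5) of narrower and 20.6% (19.98 to 21.3) of other pairs in the fetal list. In the adult list it was at 20.4% (16.8 to 24.4), 42.1% (34.4 to 50.2) and 12.9% (12.3 to 13.4). Fetal H3K4me1 was at 83.7% to 91.2% of pairs in all 3 classes, and adult H3K4me1 at 15.4% (12.2 to 19.03) of wider, 22.01% (15.8 to 29.3) of narrower and 10.7% (10.1 to 11.2) of other pairs. The adult H3K4me1 overlaps were short: with 500 bp required, these shares were 0.220%, 0.629% and 0.0569%. The gap between the 2 H3K4me1 lists was not particular to a width class. Over all pairs H3K4me1 was at 88.9% in the fetal and 10.9% in the adult list, and with 500 bp required at 48.4% and 0.0682%. H3K27me3 was also less frequent in the adult list over all pairs, at 13.4% against 21.3%. What lies behind these list-wide gaps was not tested.

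**Figure D4:**
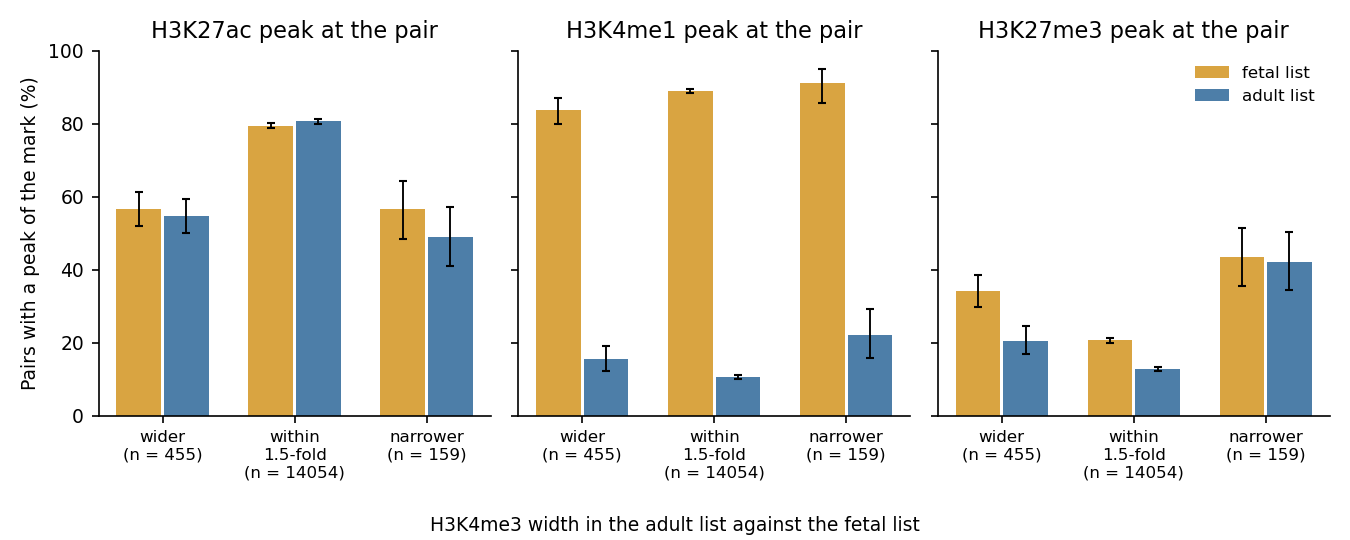
Percentage of H3K4me3 pairs that overlapped a peak of H3K27ac, H3K4me1 or H3K27me3 in the fetal or adult list, by width class, with 95% Clopper-Pearson intervals. H3K27ac was at about 80% of pairs within 1.5-fold and at 49.1% to 56.7% of changed pairs, and adult H3K27me3 was most frequent in narrower pairs, at 42.1%.

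Part of this contrast followed the score. Among pairs with a mean percentile under 25, fetal H3K27ac was at 46.3% (40.5 to 52.3) of wider pairs, 40.0% (29.5 to 51.2) of narrower pairs and 38.7% (36.7 to 40.6) of the others, so that the lower share of changed pairs was not seen within this stratum. For H3K27me3 in wider pairs the order was the opposite of that over all scores. Fetal H3K27me3 was at 34.1% (28.7 to 39.9) of wider pairs and 39.8% (37.9 to 41.8) of pairs within 1.5-fold under percentile 25, and at 34.2% (25.8 to 43.4) and 39.01% (37.4 to 40.6) between 25 and 50. Adult H3K27me3 was at 25.4% (20.5 to 30.9) and 29.5% (27.7 to 31.3) under percentile 25, and at 14.2% (8.47 to 21.7) and 24.9% (23.5 to 26.3) between 25 and 50. These strata held 287 and 120 of the 455 wider pairs. In narrower pairs adult H3K27me3 was the more frequent also within both strata, at 49.4% (38.4 to 60.5) against 29.5% (27.7 to 31.3) of pairs within 1.5-fold. Between percentiles 25 and 50 these shares were 43.8% (29.5 to 58.8) and 24.9% (23.5 to 26.3). With 500 bp of overlap required and all scores taken, adult H3K27me3 was at 22.6% of narrower, 9.67% of wider and 4.87% of other pairs.

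Pairs that had H3K27me3 in the fetal list only were wider in the adult list. There were 1206 of them, with a median log2 width ratio of 0.11, and the adult peak was the wider one in 75.5%. At least 1.5-fold widening was seen in 63 and narrowing in 6. In the 1920 pairs with H3K27me3 at both stages the median was 0.040, with 92 wider and 63 narrower, and in the 11492 with it at neither stage it was 0.016. For fetal-only H3K27me3 against none, the medians were 0.12 and 0.074 between percentiles 25 and 50, 0.11 and 0.0026 at 50 and over, and 0.032 and -0.019 at the top score. Under percentile 25 they were 0.18 and 0.17, so that the first was the higher in all 4 score strata, but by little among the weakest pairs. Pairs with H3K27me3 at both stages had lower medians than fetal-only pairs below the top score. These were 0.054 under percentile 25, 0.043 between 25 and 50 and 0.015 at 50 and over. At the top score the order was the opposite, with 0.056 in 37 pairs with it at both stages and 0.032 in 103 fetal-only pairs. Only 50 pairs had H3K27me3 in the adult list alone. Their median was -0.097, the adult peak was the wider one in 32.0%, and their median rank change with top scores tied was -12.3 points. These classes rest on 1 bp of overlap and were not formed at 500 bp. With 500 bp required, adult H3K27me3 was at 5.21% of all pairs instead of 13.4%, and fetal H3K27me3 at 20.1% instead of 21.3%. Membership of the classes thus depends on short adult overlaps.

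H3K27ac gave no such order over all pairs. The 826 pairs with H3K27ac in the adult list only had a median log2 width ratio of 0.11, and the 10832 with it at both stages 0.010. The 684 pairs with it in the fetal list only, whose median percentiles were 25.7 and 22.1, had a median of 0.095, and the 2326 with it at neither stage 0.093. For adult-only against fetal-only H3K27ac, the medians were 0.17 and 0.15 under percentile 25 and 0.11 and 0.062 between 25 and 50. At percentile 50 and over, without pairs at the top score in both lists, the median was 0.11 in 100 pairs with adult-only H3K27ac and -0.080 in 30 pairs with fetal-only H3K27ac.

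Rank changes were set beside the same marks, again by 1 bp of overlap. With top scores tied, 41 of the 132 pairs that rose, 31.1%, had H3K27me3 in the fetal list only and none had it in the adult list only. Of the 182 that fell, 4 had it in the fetal list only and 11, or 6.04%, in the adult list only. Among all other pairs these shares were 8.09% and 0.272%. H3K27ac was in the adult list only in 14.4% of the pairs that rose (19), 1.65% of those that fell (3) and 5.60% of the other 14354. It was in the fetal list only in 2.27% (3), 9.34% (17) and 4.63%.

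The flanks that were marked at 1 stage only differed from the shared core of the same pairs. In the wider pairs the adult-only flanks summed to 366 kb and the shared cores to 465 kb. Adult H3K27ac covered 37.2% of the flanks and 59.9% of the cores, and fetal H3K27ac 37.7% and 58.0%. In the narrower pairs the fetal-only flanks summed to 159 kb, of which fetal H3K27ac covered 44.4% and adult H3K27ac 21.9%, while the cores were covered to 63.1% and 53.95%. A drop of this kind was also seen in pairs within 1.5-fold. There, fetal H3K27ac covered 34.8% and adult H3K27ac 20.2% of the fetal-only flanks, against 78.1% and 76.5% of the cores. The adult-only flanks of these pairs were covered to 39.6% by fetal and to 26.6% by adult H3K27ac. Adult H3K27ac was thus the lower one on flanks of either stage. Fetal H3K4me1 covered 61.3% of the fetal-only flanks of narrower pairs and 49.7% of their cores. In pairs within 1.5-fold, it covered 60.8% of the fetal-only flanks, 46.6% of the adult-only flanks and 33.98% of the cores. H3K27me3 covered adult-only flanks and cores of wider pairs to a like extent, 26.98% and 28.3% in the fetal and 10.1% and 8.76% in the adult list.

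Changed pairs lay on all 19 chromosomes. The share of wider pairs ran from 1.504% (0.651 to 2.94) on chromosome 12 to 4.54% (2.93 to 6.68) on chromosome 19, and that of narrower pairs from 0.461% (0.126 to 1.18) on chromosome 1 to 2.39% (1.35 to 3.92) on chromosome 13. Of 1939 bins of 1 Mb with pairs, 11 held 3 or more wider pairs and 1 held 3 or more narrower ones. The 2 bins described next were chosen after their values had been seen.

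The bin with most narrower pairs was on chromosome 13 between 22 and 23 Mb, with 6 narrower and 1 wider among 19 pairs. The adult peak was the narrower one in 15 of the 19, and their median log2 ratio was -0.19. The 6 narrower pairs lay between 22005748 and 22134585. Their fetal widths were 1592, 3217, 2727, 3482, 1502 and 1280 bp, and their adult widths, in the same order, 859, 1574, 653, 930, 923 and 676 bp. A further 7 fetal peaks and no adult peak in the bin had no counterpart, and H3K27ac was at 16 of the 19 pairs in the fetal and 8 in the adult list, whereas H3K27me3 was at 5 at both stages. The bin below held 1 narrower pair of 30 and the bin above 2 of 26. Without this bin 1.48% of the pairs of chromosome 13 were narrower.

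**Figure D5:**
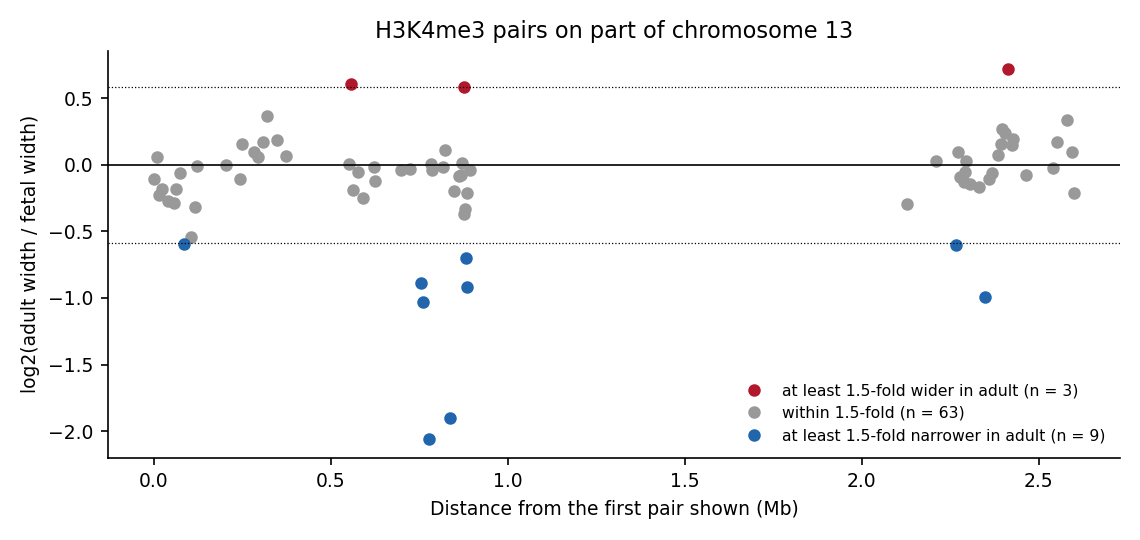
The log2 ratio of adult to fetal H3K4me3 width for pairs on part of chromosome 13, by distance in Mb from the first pair shown; dotted lines mark 1.5-fold. The 6 narrower pairs of the bin described in the text lie close together and have ratios from -2.06 to -0.70, while most pairs on either side are near 0.

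On chromosome 17 between 36 and 37 Mb, 4 of 23 pairs were wider and none was narrower. They lay within 36134284 to 36282990. Their fetal widths were 1220, 1572, 740 and 612 bp and their adult widths, in the same order, 2530, 2497, 2884 and 1315 bp. The first 3 had H3K27ac at both stages. The last had H3K27me3 at both stages and no H3K27ac at either. Over the whole bin the adult peak was the narrower one in 8 of the 23 pairs. This bin was not alone in its count. Those on chromosome 7 between 19 and 20 Mb and on chromosome 11 between 96 and 97 Mb also held 4 wider pairs, each among 27.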

How the data were processed

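The 8 deposited peak lists give a chromosome, start, end, name and score per peak, and the score is the authors' own value with no stated unit. The submitters' processing notes name Bowtie2 2.2.2 and the build mm9, and per the deposited lists the peaks are named with MACS as prefix. Caller version, settings and control are not given in the sources used here. Widths are end minus start of the deposited 0-based intervals.

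Peaks on chromosomes 1 to 19 were kept, those on X, Y and unplaced contigs set aside, and fetal and adult H3K4me3 peaks linked by 1 bp of overlap. A pair is a linked group of 1 peak from each list. Percentiles rank scores within a list with ties at their mean rank. Limits were 1.5-fold for width, 500 bp for edges and 25 percentile points for rank. Other marks were scored by 1 bp of overlap with the span of a pair. Regions were named by rule: the 5 largest width and rank changes each way, also among peaks at or above the median score, the 5 widest pairs, 5 splits and 5 merges with most pieces, and the 3 widest unmatched peaks per list. All of these are printed or summarised.

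The regions and limits were chosen with earlier results of these data known. Planned gene names were left out for want of mm9 gene positions. On simulated data from 16567 fetal peaks, 200 of 200 planted splits, merges, widenings, narrowings and losses each were recovered. They were planted without noise in peaks far from any neighbour, with 2-fold width changes and gaps mostly longer than the real ones. The run therefore checks the matching code only, not how well small or crowded changes are found. Python 3.11.15, numpy 2.4.6, pandas 2.3.3, scipy 1.17.1 and matplotlib 3.10.9 were used.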

Additional observations from a re-analysis of the deposited data

Results flagged for a closer look

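Peaks outside chromosomes 1 to 19 were left out of all comparisons, and on X and the contigs they numbered more than 3, the limit for a count of 0. Chromosome X held 534 fetal and 534 adult H3K4me3 peaks, which formed 493 pairs with a median log2 ratio of adult to fetal width of 0.059, 15 of them at least 1.5-fold wider and 4 narrower in the adult list. Unplaced contigs held 21 fetal and 24 adult H3K4me3 peaks, and chromosome Y 3 in each list.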

How the results depend on the processing

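No paired analysis was possible because the replicates of a stage share 1 deposited list, which also kept any from being left out. Tying scores of 3100 and over, taking only pairs at the top score, and the 500 bp overlap at split and merged regions were chosen after seeing the data; the other alternatives were planned. Listed below are shares outside the 95% interval given in the report and counts changed by over 1.5 times. For these the cause was not tested, except that stricter limits and fewer peaks lower counts by construction. The median log2 width ratio changed sign to -0.0057 among peaks at or above the median score and to -0.016 among pairs at the top score, and stayed at 0.024 to 0.025 under the 3 other alternatives run for it.

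With peaks at or above the median score, 92.7% of fetal and 95.1% of adult peaks were in 1 to 1 pairs and 6.93% and 4.63% were unmatched. There were 50 wider and 40 narrower pairs (55.6% wider), 223 pairs with an outward edge, 4 splits and 10 merges. With equal numbers of top-ranked peaks, 90.1% of fetal and of adult peaks were in pairs, and 7.76% of fetal and 8.13% of adult peaks were unmatched. With peaks within 1 kb merged, 90.8% of fetal and 92.4% of adult peaks were in pairs, 8.59% of fetal peaks were unmatched, and 24 splits and 40 merges were left. With 50% of each peak covered, 11.2% of fetal and 8.89% of adult peaks were unmatched. Pairs at the top score gave 14 wider and 7 narrower. At 2-fold, 89 pairs were wider and 26 narrower, and at 1000 bp 105 pairs had an outward and 64 an inward edge. Rank rises and falls were 66 and 40 with neither peak at the top score, and falls were 182 with top scores tied.

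In pairs changed by 2-fold, fetal H3K27ac was at 64.0% of wider and 76.9% of narrower pairs, fetal H3K4me1 at 100% of narrower and fetal H3K27me3 at 25.8% of wider pairs. With 500 bp of overlap, fetal H3K4me1 was at 52.5% of wider and 65.4% of narrower pairs, adult H3K4me1 at 0.220% and 0.629%, and adult H3K27me3 at 9.67% and 22.6%. Of the 32 named pairs, 14 were still pairs with 50% of each peak covered, 15 among peaks at or above the median score and 30 with equal numbers of peaks, and of the 10 largest width changes these settings kept 0, 1 and 8. The 0 was fixed in advance, since 50% of the wider peak cannot be covered where widths differ by more than 2-fold. A pair that is kept has the same width by construction. Merging peaks within 1 kb, which can change widths, kept all 32 and moved 4, to log2 ratios of -2.34, -2.75, -1.99 and -0.27 for the regions named above on chromosomes 6, 13 and 2 and a wide pair on chromosome 11; none changed sign.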
